A study of Mus musculus with 47 samples.

Results

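The passage from late night to early day was followed in retinas of 20-month-old mice by comparing 4 libraries taken at ZT22 with 4 taken at ZT2. Zeitgeber time (ZT) counts hours from lights on, so ZT22 falls in the last part of the dark phase and ZT2 in the first part of the light phase, and lights came on between them. Genes entered where RPKM (reads per kilobase of transcript and M reads) reached 0.5 in at least 4 of these 8 libraries, which held for 14366 of the 57180 genes listed. The series has 47 libraries of whole retina from C57BL/6 mice, an inbred laboratory strain, aged 6 weeks (young) or 20 months (aged), taken every 4 h under 12 h of light and 12 h of dark. The labels name no treatment for either aged group, and both give 1 retina, from the right eye, of each of 4 mice per time, dissected under dim red light after the front of the eye was removed. The same pair of times in young mice, 4 libraries each, served as the comparison between ages.

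The retina changes its work at dawn. Rods keep a steady inward current in darkness, which makes the dark retina one of the most energy-demanding states of any tissue, and oxygen in the outer retina is then low. Low oxygen stabilises hypoxia-inducible factor, a transcription factor that switches on glucose uptake and glycolysis. Alongside the light itself, a circadian clock in retinal cells and dopamine released by amacrine cells set day and night states.

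Between 35.3 and 46.5 M reads lay behind each of the 8 libraries (median 37.2 M), and their Spearman correlations with one another ran from 0.937 to 0.986. Markers of retina were present throughout, with the rod transducin gene Gnat1 at 2510 to 4470 RPKM and the cone gene Arr3 at 46 to 72.5 RPKM. Markers of neighbouring tissue were present at levels that varied widely between libraries, such as the pigment epithelium gene Rpe65 at 0.569 to 11.7 RPKM, the hemoglobin gene Hbb-bs at 20.2 to 389 RPKM and the lens gene Crybb2 at 12.3 to 414 RPKM. A single axis carried 62.2% of the variance within groups, with ZT2 replicates 3 and 4 and ZT22 replicate 3 at one end of it. In those 3 libraries the mean log2 level of ganglion cell markers was 3.18, 3.27 and 3.57, against 3.79 to 5.01 in the other 5. Results are given with all 8 libraries. Of the 28 named genes that passed the test with all 8, only Irf7, Actg1 and Zdhhc5 also passed without those 3, when 5 libraries remained. The other 25 kept their direction but did not pass.

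At ZT2, 46 genes differed from ZT22 by more than 1.5-fold with an adjusted p below 0.05 (limma on log2(RPKM + 0.5), Benjamini-Hochberg over all 14366 genes), of which 13 were higher and 33 lower. These are 0.32% of the genes tested, 0.0905% higher and 0.23% lower. On the adjusted p alone, 27 genes were higher (0.188%) and 55 lower (0.383%), 82 in all (0.571%), and 1463 genes (10.2%) had an unadjusted p below 0.05. All 46 were separated between the groups, each ZT2 library on the same side of each ZT22 library, which held for 4.09% of all genes upward and 3.7% downward. The 27 rises and 55 falls past the adjusted p were all separated too. Separation thus comes with passing the test and, here and below, adds no support to a gene that passed. By size, Serpine3 and the pigment epithelium genes Rpe65 and Rgr led the falls, and 4 transcripts without a gene name led the rises, followed by Actg1 and Hmgb2. The falls also held Irf7, an interferon regulatory factor, and genes of glucose handling. Of the 46, 4 reached 0.5 RPKM in at most 1 library of their lower group (Mir210, Serpine3, Col8a2 and the unnamed Gm30684), so that they entered the test through the group where they are high. Without these 4 the largest fold was 2.3 among the rises and 5.79 among the falls, and the smallest were 1.5 and 1.52, on the log2(RPKM + 0.5) scale, which understates the change of low genes. The number called depended on single libraries: it was 38 without ZT2 replicate 1, 15, 15 and 24 without ZT2 replicates 2, 3 and 4, and 3, 8, 10 and 12 without ZT22 replicates 1, 2, 3 and 4. Without ZT2 replicates 3 and 4 and ZT22 replicate 3 together it was 9, of which 6 were among the 46. With the axis as a covariate the number called was 105, with all 46 among them. The axis was computed from the within-group spread of these same values, and fitting it removes that spread. Larger counts with it, here and below, therefore give no support to the calls.

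**Figure D1:**
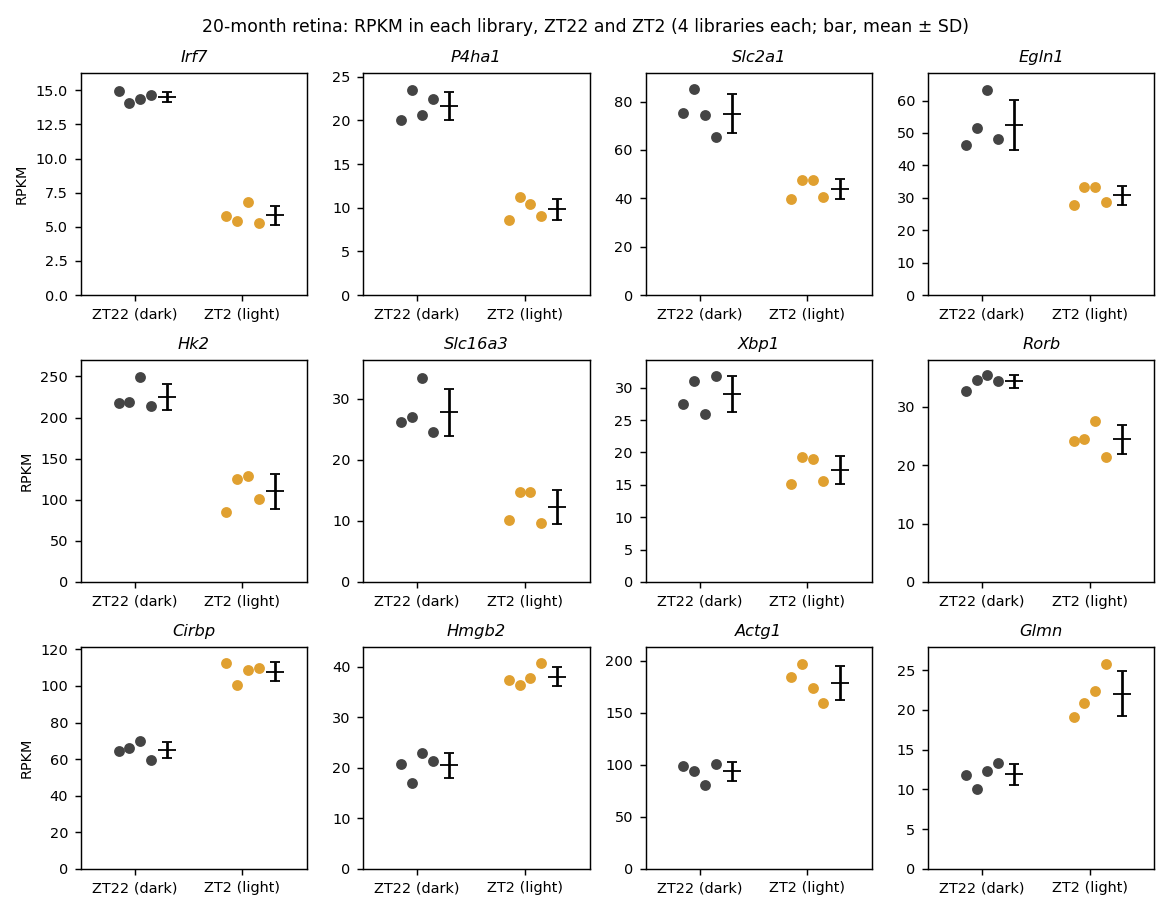
RPKM of 12 genes in each aged library at ZT22 (dark grey) and ZT2 (orange); points are the 4 libraries in replicate order and bars the mean ± SD. In each panel the ZT22 and ZT2 libraries are separate: the first 8 genes are lower at ZT2 and the last 4, from Cirbp to Glmn, are higher.

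Targets of hypoxia-inducible factor fell at dawn in part. Of 13 tested members of the hypoxia target list 3 fell (0.383% of all genes), none rose and 10 did not pass, with a median log2 difference of -0.35 against 0 over all genes. P4ha1 (ENSMUSG00000019916), a prolyl hydroxylase subunit needed for collagen folding, was at 20.0, 23.5, 20.6 and 22.4 RPKM in the ZT22 libraries and at 8.54, 11.2, 10.4 and 9.07 RPKM at ZT2. The groups lie far apart, with a log2 difference of -1.11 ± 0.10 (SE, n = 4 and 4, limma adjusted p = 0.00853). Slc2a1, the glucose transporter GLUT1, was at 75.2, 85.1, 74.5 and 65.5 RPKM at ZT22 and at 39.8, 47.6, 47.4 and 40.7 RPKM at ZT2. Every ZT2 library was below every ZT22 library, and the log2 difference was -0.77 ± 0.10 (SE, limma adjusted p = 0.0236). Egln1, the oxygen-sensing hydroxylase that marks hypoxia-inducible factor for destruction, was at 46.3, 51.5, 63.4 and 48.3 RPKM at ZT22 and at 27.8, 33.2, 33.4 and 28.9 RPKM at ZT2. It also separated the groups, with a log2 difference of -0.75 ± 0.11 (SE, limma adjusted p = 0.0378). The factor's own subunit Hif1a, which the list counts among its 13 members, went from 95.4 ± 2.03 to 91.1 ± 3.95 RPKM (SD), and did not pass (adjusted p = 0.847). Vegfa, an angiogenic growth factor, went from 17.6 ± 4.99 to 12.9 ± 3.34 RPKM (SD, adjusted p = 0.593). Ankrd37, another target, stood at 5.04 ± 0.509 and 3.43 ± 0.486 RPKM (SD) with a log2 difference of -0.50 ± 0.12 (SE, adjusted p = 0.159). Without ZT2 replicates 3 and 4 and ZT22 replicate 3 none of the 13 passed, and the median was -0.17, and leaving out single libraries left 1 to 2.

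The core of the element that hypoxia-inducible factor binds reads ACGTG or GCGTG, so the promoters of the 3 members that fell are shown. Each sequence is the 250 bases before the annotated start in RefSeq on GRCm38.p6, which is an earlier build than the GRCm39 of the expression values and was used for sequence only. Capitals mark every match to either core on either strand (CACGT and CACGC are the reverse strand).
P4ha1, chr10:59323046-59323295, plus strand: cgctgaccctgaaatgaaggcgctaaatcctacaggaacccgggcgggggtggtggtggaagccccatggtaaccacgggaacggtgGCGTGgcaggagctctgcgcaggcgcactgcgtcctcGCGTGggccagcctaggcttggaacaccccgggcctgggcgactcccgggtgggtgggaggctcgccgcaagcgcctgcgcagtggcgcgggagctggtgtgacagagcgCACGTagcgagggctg
Slc2a1, chr4:119108495-119108744, plus strand: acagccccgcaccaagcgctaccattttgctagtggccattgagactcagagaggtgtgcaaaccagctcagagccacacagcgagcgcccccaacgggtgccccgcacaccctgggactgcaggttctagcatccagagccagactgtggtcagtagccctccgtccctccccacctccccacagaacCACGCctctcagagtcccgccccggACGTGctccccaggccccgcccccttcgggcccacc
Egln1, chr8:124949255-124949504, minus strand: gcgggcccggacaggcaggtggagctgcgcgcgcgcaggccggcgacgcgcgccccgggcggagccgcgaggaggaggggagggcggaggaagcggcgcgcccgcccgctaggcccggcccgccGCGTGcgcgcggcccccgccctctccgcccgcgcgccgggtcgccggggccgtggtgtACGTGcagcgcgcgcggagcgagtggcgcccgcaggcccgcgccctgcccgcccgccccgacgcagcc
P4ha1 has 3 matches and Slc2a1 and Egln1 have 2 each. Of the 13 list members 10 had a promoter in the table, Hif1a among them, and all 10 held a match in at least 1 of their promoters, the members that did not pass included. Among 32851 promoters of the same length 38.6% held either core, 16.6% the one that begins with A and 28.2% the one that begins with G. The one that begins with A is also part of the E-box, the element that clock factors bind. The list's promoters were richer in G and C, with a median of 66.4% against 52.4% over all promoters. A member also counted if any of its promoters held a match, whereas the 38.6% counts single promoters. The shares are therefore not like for like. A match is a stretch of letters and was not tested as a binding site.

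Along the path of glucose, the genes that passed were those of its entry and of lactate export, while 20 of the 23 tested were lower at ZT2. Of 23 tested glycolysis genes 3 fell (0.383% of all genes), none rose and 20 did not pass, with a median of -0.26, and Slc2a1 above is one of the 3. Hk2, the hexokinase that traps glucose in photoreceptors, was at 218, 218, 248.8 and 214 RPKM at ZT22 and at 84.8, 125, 129 and 101 RPKM at ZT2. The ZT2 libraries were all below the ZT22 ones, with a log2 difference of -1.05 ± 0.14 (SE, limma adjusted p = 0.0236). Slc16a3, the lactate exporter MCT4, was at 26.3, 27.0, 33.4 and 24.5 RPKM at ZT22 and at 10.1, 14.8, 14.7 and 9.67 RPKM at ZT2, again without overlap (log2 difference -1.16 ± 0.16 SE, limma adjusted p = 0.0287). The enzymes between these ends did not pass: Pfkl was at 122.7 ± 9.38 and 95.1 ± 10.9 RPKM (SD, log2 difference -0.37, adjusted p = 0.193), Pgk1 at 494 ± 48.8 and 371 ± 31.6 RPKM (SD, -0.41, adjusted p = 0.187), and Ldha, lactate dehydrogenase, at 655 ± 67.5 and 507 ± 42.5 RPKM (SD, -0.37, adjusted p = 0.265). Pkm, pyruvate kinase, was at 1211 ± 128 and 1178 ± 85.6 RPKM (SD, adjusted p = 0.999). For 7 of the 21 members with a single identifier all ZT2 libraries lay below all ZT22 libraries, against 3.7% of all genes. With all 12 groups in the fit and aged ZT6 replicate 3 and young ZT10 replicate 4 left out, 9 members fell. With the within-group axis as a covariate 6 members fell, and after median-ratio scaling or without ZT2 replicates 3 and 4 and ZT22 replicate 3 none passed. Leaving out ZT2 replicate 2 or 4, or ZT22 replicate 1, 2 or 3, each alone, also left none, and leaving out ZT2 replicate 3 or ZT22 replicate 4 left 1.

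Ak4, Mxi1 and Kdm3a, which are on neither list, were among the other falls. Ak4, a mitochondrial adenylate kinase, was at 20.2 ± 2.64 RPKM at ZT22 and at 8.10, 10.1, 7.92 and 4.97 RPKM at ZT2 (mean 7.77 ± 2.12, SD), with no overlap and a log2 difference of -1.35 ± 0.19 (SE, limma adjusted p = 0.0287). Mxi1, which antagonises the transcription factor Myc, went from 13.9 ± 0.903 to 7.49 ± 0.86 RPKM (SD, log2 difference -0.86, adjusted p = 0.0105). Kdm3a, a histone demethylase, went from 11.1 ± 0.416 to 6.38 ± 0.811 RPKM (SD, -0.76, adjusted p = 0.0207) and was noticed after its values were seen. Mir210, a microRNA hairpin gene also noticed afterwards, was listed at 0.978, 1.26, 0.725 and 0.984 RPKM at ZT22 and at 0 in every ZT2 library, and since it entered the test only through ZT22 its call supports nothing. Marker levels of pigment epithelium moved with these genes, from a sum of 273 to 432 RPKM at ZT22 to 214 to 231 RPKM at ZT2. The ZT22 libraries themselves differed in Rpe65, with 11.7 and 10.97 RPKM in replicates 1 and 2 and 4.56 and 5.58 RPKM in replicates 3 and 4. P4ha1 was at 20.0 and 23.5 RPKM in replicates 1 and 2 and at 20.6 and 22.4 RPKM in replicates 3 and 4. It is a single gene, and nothing follows from it for the others. The part of pigment epithelium in these falls was not tested.

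Irf7 (ENSMUSG00000025498), a transcription factor of the interferon response, had the smallest p of all genes. It was at 14.99, 14.1, 14.4 and 14.7 RPKM at ZT22 and at 5.81, 5.43, 6.83 and 5.26 RPKM at ZT2. Replicates lay close together in both groups, with a log2 difference of -1.25 ± 0.09 (SE, limma adjusted p = 0.00317), and Irf7 passed in each of 22 settings run. The other 12 tested members of the interferon response list did not pass (0.383% of all genes fell), and the list's median was -0.01. Isg15, a product of the response, was at 1.50 ± 0.271 and 1.58 ± 0.624 RPKM (SD).

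Drd4, the dopamine D4 receptor of photoreceptors, fell as well. It was at 190.0, 183, 207 and 175 RPKM at ZT22 and at 100.4, 121, 139 and 128 RPKM at ZT2. The groups did not overlap, and the log2 difference was -0.63 ± 0.11 (SE, limma adjusted p = 0.0479). It was the 1 of 11 tested members of the dopamine, cAMP and melatonin list that passed (0.383% of all genes fell). Drd4 passed in 9 of 22 settings, and in 7 of the 8 in which 1 library was left out it did not, the exception being ZT2 replicate 1. The dopamine-synthesising enzyme Th was low, at 0.65 ± 0.142 and 0.534 ± 0.155 RPKM (SD), and Drd2, another dopamine receptor, was at 10.8 ± 2.94 and 7.96 ± 1.88 RPKM (SD, adjusted p = 0.59). Adcy1, an adenylyl cyclase, was at 38.6 ± 1.26 and 38.7 ± 1.42 RPKM (SD).

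Xbp1, a transcription factor that raises the folding capacity of the endoplasmic reticulum, was at 27.5, 31.0, 26.0 and 31.7 RPKM at ZT22 and at 15.2, 19.3, 19.0 and 15.6 RPKM at ZT2. The groups were apart, with a log2 difference of -0.74 ± 0.10 (SE, limma adjusted p = 0.0287). Hyou1, a chaperone of the same compartment, went from 17.1 ± 1.09 to 12.7 ± 0.434 RPKM (SD, log2 difference -0.41 ± 0.07 SE, adjusted p = 0.04). These were the 2 of 19 tested members of the list that fell (0.383% of all genes), with a median of -0.11. No member passed after median-ratio scaling, and leaving out ZT2 replicate 1 left 1 member whereas leaving out any other single library left none. The main chaperone of the compartment, Hspa5, stood at 93.0 ± 3.77 and 71.9 ± 5.54 RPKM (SD, log2 difference -0.37 ± 0.07 SE, adjusted p = 0.0789), and Calr, calreticulin, at 172 ± 7.16 and 159 ± 21.1 RPKM (SD, adjusted p = 0.853). Among 21 cytosolic heat shock chaperones none passed, with a median of -0.23, and 19 were lower at ZT2. For 6 of them all ZT2 libraries lay below all ZT22 libraries (3.7% of all genes), and for 0 all lay above. The constitutive chaperone Hspa8 was at 347 ± 30.6 and 265 ± 26.9 RPKM (SD, adjusted p = 0.202).

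Of the 13 transcripts that rose, 6 are named genes, and the other 7 carry only clone or locus identifiers, with log2 differences from 0.69 to 1.90. Cirbp, the cold-inducible RNA-binding protein, was at 64.3, 66.1, 70.0 and 59.4 RPKM at ZT22 and at 112, 100.7, 109 and 110 RPKM at ZT2. The ZT2 libraries were all higher, with a log2 difference of 0.73 ± 0.07 (SE, limma adjusted p = 0.00853). It was the 1 of 4 cold-inducible genes that rose (0.188% of all genes). Rbm3, the other classical cold-shock RNA-binding protein, was at 6.47 ± 0.426 and 9.44 ± 1.86 RPKM (SD) with a log2 difference of 0.50 ± 0.12 (SE, adjusted p = 0.184). Hmgb2, a chromatin-bending protein, was at 20.7, 17.1, 22.9 and 21.4 RPKM at ZT22 and at 37.5, 36.4, 37.9 and 40.7 RPKM at ZT2. It did not overlap between groups, with a log2 difference of 0.88 ± 0.09 (SE, limma adjusted p = 0.0105).

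Actg1, cytoplasmic gamma-actin, was the most abundant of the named rises. It was at 98.8, 94.0, 80.6 and 101 RPKM at ZT22 and at 184, 197, 174 and 159 RPKM at ZT2, again without overlap (log2 difference 0.93 ± 0.10 SE, limma adjusted p = 0.0105). Actin genes have close copies elsewhere in the genome, so reads could be split between them. Mylip, a ubiquitin ligase that removes the LDL receptor, was at 9.19 ± 1.16 RPKM (SD) at ZT22 and at 13.9, 13.6, 14.5 and 14.1 RPKM at ZT2, with no overlap (log2 difference 0.59 ± 0.09 SE, adjusted p = 0.04). Mylip passed in 9 of 22 settings, and did not pass when any 1 of the 8 libraries was left out.

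Glmn and Rpap2 rose side by side. Glmn, glomulin, an inhibitor of cullin-RING ubiquitin ligases, was at 11.9, 10.1, 12.3 and 13.3 RPKM at ZT22 and at 19.2, 20.9, 22.4 and 25.8 RPKM at ZT2 (log2 difference 0.86 ± 0.11 SE, limma adjusted p = 0.0236). Rpap2, a phosphatase of RNA polymerase II, was at 3.02, 2.91, 2.99 and 3.19 RPKM at ZT22 and at 5.19, 4.61, 4.82 and 4.63 RPKM at ZT2 (log2 difference 0.59 ± 0.08 SE, limma adjusted p = 0.0241). Neither gene overlapped between the groups. They are neighbours on opposite strands, and 179 of the 250 bases before the start of Glmn also lie before the start of Rpap2, so the Glmn promoter is shown with the shared bases in capitals (RefSeq, GRCm38.p6). The table gives 2 starts for Glmn and 3 for Rpap2, and the pair of starts with the largest overlap was taken.
Glmn, chr5:107597640-107597889, minus strand: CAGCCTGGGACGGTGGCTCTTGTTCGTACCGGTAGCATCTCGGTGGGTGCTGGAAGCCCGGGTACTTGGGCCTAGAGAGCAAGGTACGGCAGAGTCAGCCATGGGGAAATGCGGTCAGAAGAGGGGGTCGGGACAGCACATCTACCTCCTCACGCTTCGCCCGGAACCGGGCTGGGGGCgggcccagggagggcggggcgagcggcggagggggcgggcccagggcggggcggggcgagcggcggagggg
Whether the counting used strand is not given in the sources used here, so reads from a shared start region cannot be assigned with certainty. Over 13066 pairs of tested genes next to each other in RefSeq order, 3 pairs had both members past the adjusted p.

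Of the clock genes, a single one passed. Rorb, a nuclear receptor that is both a clock component and a regulator of rod development, was at 32.8, 34.7, 35.5 and 34.4 RPKM at ZT22 and at 24.1, 24.6, 27.6 and 21.4 RPKM at ZT2. The 4 ZT2 libraries were all lower, with a log2 difference of -0.49 ± 0.08 (SE, limma adjusted p = 0.0418). Rorb did not pass when any 1 of the 8 libraries was left out. Among 17 tested core clock genes 1 fell (0.383% of all genes) and none rose, with a median of -0.15, and among 7 output factors none passed. Per2, a repressor of the clock loop, went from 3.21 ± 0.366 to 1.70 ± 0.672 RPKM (SD, log2 difference -0.80 ± 0.22 SE) without passing (adjusted p = 0.217). Cry1, its partner repressor, was at 22.6, 22.2, 20.95 and 21.1 RPKM at ZT22 and at 16.7, 18.3, 18.4 and 18.2 RPKM at ZT2 (adjusted p = 0.12), and Per1 was at 13.6 ± 1.17 and 12.3 ± 1.78 RPKM (SD, adjusted p = 0.805). The repressor Bhlhe41 was at 12.8 ± 0.43 and 10.2 ± 0.445 RPKM (SD, adjusted p = 0.0852), and Nfil3 at 7.80 ± 1.14 and 6.79 ± 1.06 RPKM (SD, adjusted p = 0.771). The other 18 members of both lists had log2 differences from -0.46 to 0.41, with no adjusted p under 0.269, and 9 of them took both signs over the settings.

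Among photoreceptor transcription factors and glucocorticoid-responsive genes, Mef2d and Klf9 also passed the adjusted p. Both changed by less than 1.5-fold (1.42 and 1.37), so they are not among the called genes. Mef2d, an activator of photoreceptor genes, was at 104, 107, 98.8 and 95.5 RPKM at ZT22 and at 66.7, 74.4, 74.8 and 69.3 RPKM at ZT2, without overlap (log2 difference -0.51 ± 0.07 SE, limma adjusted p = 0.0236). Of 11 tested photoreceptor factors 2 fell (0.383% of all genes), Rorb and Mef2d, and the median was -0.14. Nr2e3, which represses cone genes in rods, was at 222 ± 18.2 and 333 ± 44.5 RPKM (SD, log2 difference 0.58 ± 0.11 SE) but did not pass (adjusted p = 0.0828). Klf9, a steroid- and clock-responsive factor, went from 34.0 ± 2.05 to 24.7 ± 1.61 RPKM (SD, log2 difference -0.46 ± 0.07 SE, adjusted p = 0.04). It was the 1 of 13 glucocorticoid-responsive genes to pass (0.383% of all genes fell). Klf9 passed in 9 of 22 settings, and did not pass when any 1 of the 8 libraries was left out. Mef2d passed in 11 of 22, and with 1 library left out it passed only without ZT2 replicate 1. None of 13 immediate early genes passed. Their widest difference was in Nr4a1, an activity-induced nuclear receptor, at 15.3 ± 1.16 and 6.36 ± 2.45 RPKM (SD, log2 difference -1.27 ± 0.22 SE, adjusted p = 0.0539).

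Among the largest falls were genes of the pigment epithelium, the cell layer behind the retina that rebuilds the visual chromophore. Rpe65, its isomerase, was at 11.7, 10.97, 4.56 and 5.58 RPKM at ZT22 and at 2.198, 0.665, 0.569 and 0.643 RPKM at ZT2 (log2 difference -2.53 ± 0.38 SE, limma adjusted p = 0.0396). The ZT22 libraries were all higher, but replicates 1 and 2 stood well above 3 and 4. Rgr, a light-sensitive opsin of the same layer, was at 26.1, 24.1, 10.1 and 11.6 RPKM at ZT22 and at 3.84, 2.63, 2.72 and 1.94 RPKM at ZT2, in the same order of libraries at ZT22 (log2 difference -2.41 ± 0.32 SE, limma adjusted p = 0.0256). Of 14 tested pigment epithelium markers 2 fell (0.383% of all genes) and 13 were lower at ZT2, with a median of -1.10, and 9 lay without overlap below ZT22 (3.7% of all genes). Ttr, the carrier of thyroxine and retinol-binding protein, was at 49.4 ± 28.2 and 9.92 ± 1.49 RPKM (SD, adjusted p = 0.077), and Rdh5, a retinol dehydrogenase, at 3.67 ± 1.82 and 0.71 ± 0.106 RPKM (SD, adjusted p = 0.0581). Rlbp1, a marker shared with Müller glia, was at 79.5 ± 18.9 and 82.8 ± 11.7 RPKM (SD, adjusted p = 0.999). Among 16 visual cycle genes the 2 falls were again Rpe65 and Rgr, whereas the photoreceptor members Rdh8, Rdh12 and Abca4 differed by -0.19, 0.12 and 0.04 (log2) and did not pass.

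Pigment epithelium is not retina, and how much of it stays on a dissected retina can vary. In whole tissue, fewer cells of a type and less RNA per cell cannot be told apart. Blood genes had summed levels of 137 to 831 RPKM at ZT22 and 52.7 to 237 RPKM at ZT2, ranges that overlap, with a median log2 difference of -1.34 over 6 members, none of which passed. Summed levels of lens genes overlapped, at 181 to 807 and 65.6 to 2190 RPKM. Serpine3, a serpin, was at 6.68, 8.30, 3.22 and 2.03 RPKM at ZT22 and at 0.303, 0.745, 0.0805 and 0.280 RPKM at ZT2 (log2 difference -2.59 ± 0.41 SE, limma adjusted p = 0.04), with as few as 4 reads in a library. Col8a2, a basement membrane collagen chain, was at 3.76, 3.56, 1.65 and 1.57 RPKM at ZT22 and at 0.562, 0.418, 0.396 and 0.389 RPKM at ZT2 (log2 difference -1.66 ± 0.26 SE, limma adjusted p = 0.04). Both genes entered the test through ZT22, with 0.5 RPKM reached in at most 1 ZT2 library, so their calls support nothing. Both genes were highest in ZT22 replicates 1 and 2, the libraries with the most Rpe65. No marker of the list was listed at 0 in any library, and the part of adhering pigment epithelium in these falls was not tested. With limma voom on recovered reads none of the 14 markers passed, with the within-group axis as a covariate 9 fell, and without ZT2 replicates 2, 3 or 4 or ZT22 replicates 1, 2 or 4, each left out alone, none passed.

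**Figure D2:**
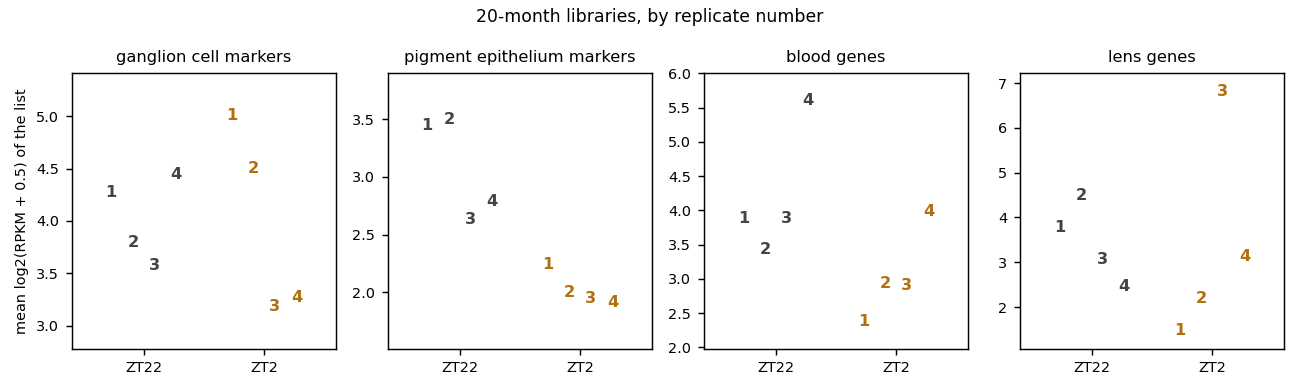
Mean log2(RPKM + 0.5) of 4 marker lists in each of the 8 aged libraries at ZT22 (dark grey) and ZT2 (orange), each point drawn as its replicate number. Pigment epithelium markers are lower in every ZT2 library, whereas ganglion cell markers overlap, with ZT2 replicates 3 and 4 lowest.

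The remaining falls stand alone. Aqp1, a water channel of the ciliary epithelium and some amacrine cells, went from 179 ± 12.5 to 103 ± 15.1 RPKM (SD, log2 difference -0.81, adjusted p = 0.0287). It was the 1 of 3 tested genes of the cornea and ciliary list to fall (0.383% of all genes). The cornea genes Kera and Krt12 were at 0 and at 0 to 0.174 RPKM. Sik2, a salt-inducible kinase, went from 10.1 ± 0.48 to 4.87 ± 0.964 RPKM (SD, -0.99, adjusted p = 0.0236). Rhobtb1 (-0.82) and the palmitoyltransferase gene Zdhhc5 (-0.81) fell with adjusted p of 0.0193 and 0.0236. A further 9 genes with an established name were called lower, with log2 differences from -0.76 to -0.61, among them Kdm3a above, Whrn, a scaffold protein of photoreceptors and hair cells, and Gnaz, an inhibitory G protein subunit.

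Most gene lists, which cover retinal cells, neighbouring tissues and general cell functions, held no gene that passed at dawn. Of 46 gene lists 34 had no member that passed, and in all 16 of 714 listed genes passed (0.571% of all genes passed that threshold). None of 10 rod activation genes, 12 cone phototransduction genes or 20 ribbon synapse genes passed, with medians of 0.03, -0.01 and -0.05, of which the first was -0.15 without the 3 libraries that stand apart and the next 0.09 without ZT2 replicate 1. Rod activation genes differed by between -0.06 and 0.22. Among 83 cytosolic ribosomal protein genes 3 were lower at ZT2 and 80 were not, with a median of 0.14, which was 0.04 without ZT2 replicate 4 and 0.03 without ZT2 replicates 3 and 4 and ZT22 replicate 3. Their mean log2 level was 6.35, 6.60 and 6.32 in those 3 libraries and 5.90 to 6.31 in the other 5, and the part of this in the median was not tested. Complex I subunits (37 genes) had a median of 0.12, and proteasome subunits (36 genes) one of 0.08, with no gene past the test in either. Mitochondrially encoded transcripts had a median of 0.25 over 13 genes, none of which passed.

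The same interval in young retinas gave 29 called genes, 9 higher and 20 lower (0.202% of those tested, 0.0626% and 0.139%). The aged and young comparisons share no library, and the aged calls include the 4 genes that entered through the group where they are high. Of the 13 aged rises all 13 were higher at ZT2 in young retinas, 6 of them past the adjusted p (0.16% of all genes rose past it). Of the 33 aged falls 32 were lower, 18 of them past it (0.251% of all genes), and the exception was Mir210 (66.9% of all genes had the same sign at both ages). The genes called at both ages numbered 13, which is 28.3% of the aged calls and 44.8% of the young ones. Median log2 differences were 0.87 in aged and 0.66 in young for the rises, and -0.82 and -0.50 for the falls, and all 46 were smaller in size in young. Since the genes were chosen on the aged values, a smaller size at the other age is built into that choice. Irf7 fell in young from 13.5 ± 0.664 to 6.64 ± 0.673 RPKM (SD, log2 difference -0.97 ± 0.08 SE, adjusted p = 0.00236), and Actg1 rose from 104 ± 8.07 to 185 ± 11.2 RPKM (SD, 0.83 ± 0.07 SE, adjusted p = 0.00362).

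**Figure D3:**
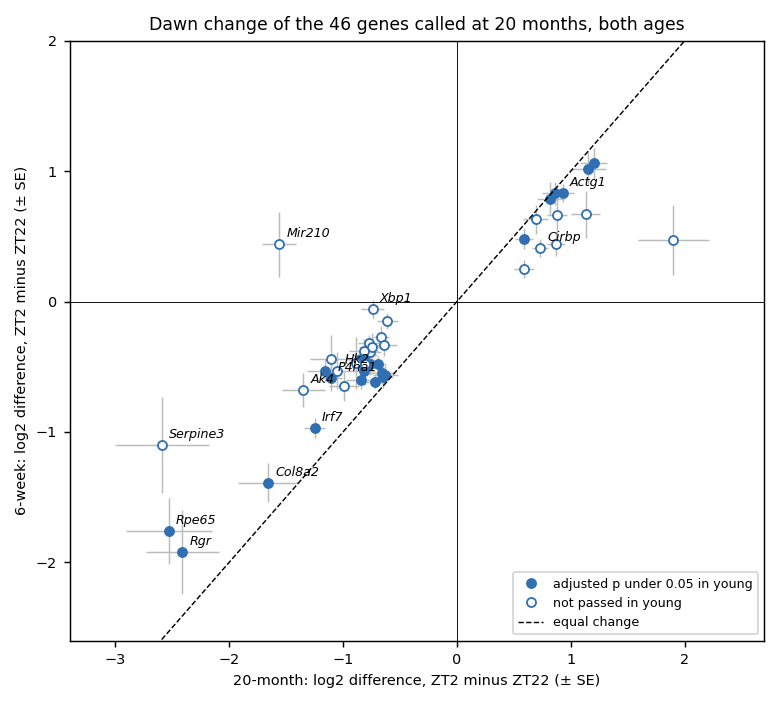
Log2 difference (ZT2 minus ZT22) of the 46 genes called in aged retinas, in aged (x axis) and young (y axis) retinas, with SE bars; filled points also passed the adjusted p in young. All but Mir210 have the same sign at both ages, and the points lie nearer to 0 on the young axis than the dashed line of equal change.

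No gene passed the direct test of the dawn change between ages. The limma test of the aged minus young difference over 16 libraries called none of 14366 genes (0%), with a smallest adjusted p of 0.107. An unadjusted p under 0.05 was reached by 592 genes (4.12%), and voom on recovered reads also called none. The smallest p was that of Mir210, which is low in all groups. Of genes with at least 2 RPKM and an established name, Xbp1 had the smallest p: it fell in aged but was at 24.7 ± 1.91 and 23.7 ± 1.01 RPKM (SD) in young, a log2 difference of -0.06, and the change differed by -0.68 ± 0.13 between ages (SE, adjusted p = 0.335). P4ha1 was at 16.6 ± 2.02 and 10.9 ± 1.01 RPKM (SD) in young and its change differed by -0.52 ± 0.14 (SE, adjusted p = 0.863). Slc2a1 in young was at 65.9 ± 2.13 and 52.6 ± 3.46 RPKM (SD), a difference of -0.44 ± 0.11 between the changes (SE, adjusted p = 0.762). Rbm14 (-0.56 ± 0.11), an RNA-binding protein, and Zfp790 (0.53 ± 0.11), a zinc finger gene, had unadjusted p of 0.000111 and 0.0002 for the difference, with adjusted p of 0.398 and 0.568. Rsrp1, Atg4c, Srrt, Dync1li1, Sgf29, Slc18b1 and Alkbh2 completed the 10 smallest p-values among named genes, with unadjusted p from 0.000237 to 0.000871 and none past adjustment.

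The remaining 4 times of day in aged retinas, in libraries that the dawn comparison did not use, were compared by light phase. The mean of ZT6 and ZT10 (light) was set against that of ZT14 and ZT18 (dark), a comparison added after the data were seen, and it called 229 genes (1.59%). Of the 13 dawn rises all 13 were higher in the light, 9 of them past the adjusted p (3.91% of all genes), and of the 33 falls 31 were lower in the light, 29 past it (3.03%). Without aged ZT6 replicate 3, which stands apart, those past it were 13 (12.2% of all genes) and 30 (6.95%). Both sets include genes that entered the dawn test only through the group where they are high. Over the day P4ha1 was at 9.84 ± 1.54 RPKM at ZT6 and 12.5 ± 0.967 at ZT10, and at 23.9 ± 1.39 at ZT14 and 18.7 ± 2.29 at ZT18 (SD), so its ZT2 mean of 9.80 RPKM was close to that of ZT6 and its ZT22 mean of 21.6 RPKM lay between those of ZT14 and ZT18. Irf7 was at 2.58 ± 0.959 and 3.56 ± 0.639 RPKM in the light and at 16.4 ± 3.01 and 21.2 ± 4.01 in the dark (SD), and its ZT2 level of 5.83 RPKM was above those later in the light. Hk2 was at 77.5 ± 13.2 RPKM at ZT6 and Drd4 at 66.3 ± 17.8 RPKM (SD), both below their ZT2 means of 110.0 and 122 RPKM. Xbp1 was at 16.1 ± 0.479 and 15.5 ± 0.595 RPKM in the light and at 29.2 ± 0.74 and 29.4 ± 4.8 in the dark (SD).

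**Figure D4:**
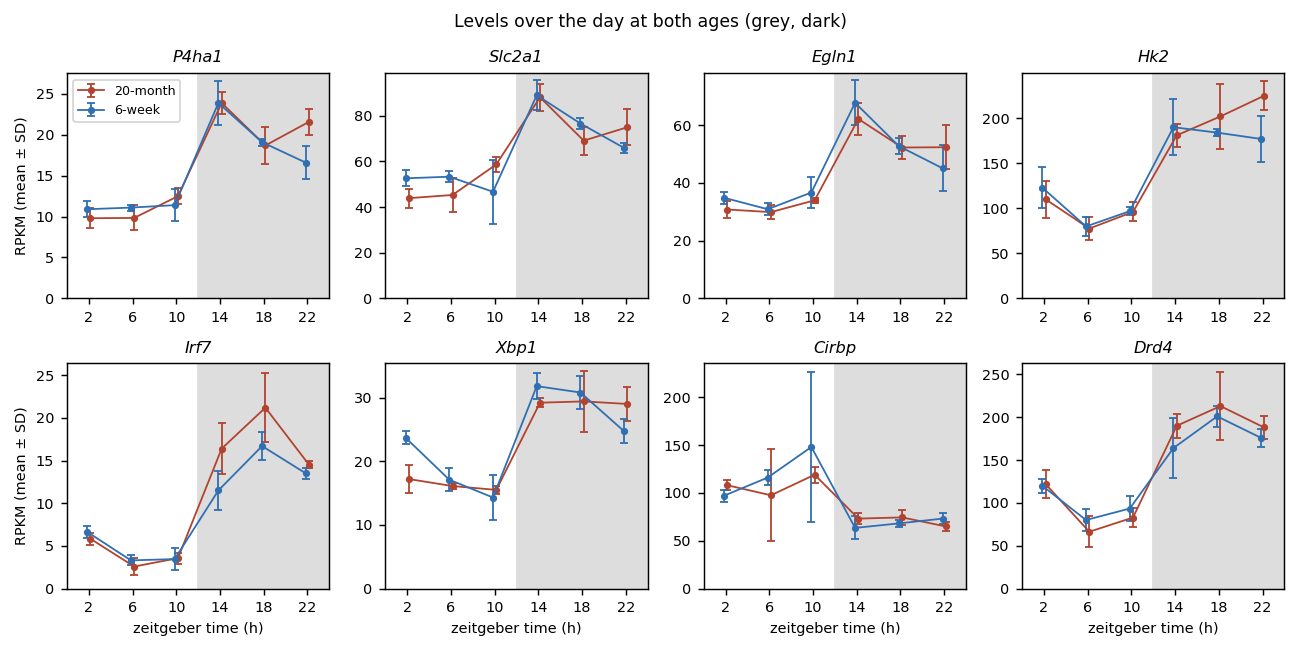
RPKM of 8 genes at the 6 times of day in aged (red) and young (blue) retinas, mean ± SD, with the dark phase in grey; each point is 4 libraries, except 3 for aged ZT18. P4ha1, Slc2a1, Egln1, Hk2, Irf7, Xbp1 and Drd4 have higher means in the dark at both ages and Cirbp in the light; the wide bars of Cirbp are at aged ZT6 and young ZT10.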

How the data were processed

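Messenger RNA of mouse retina was sequenced, 1 library per mouse, grouped by the age and time that the labels state. The authors deposited RPKM values for each library, without pooling. The labels' protocols give poly-T bead selection and random hexamer priming. Per the submitters' processing notes the tools were HISAT2 2.2.1, Subread 2.0.6 and FastQC 0.23.4 and the build GRCm39, with no roles given. The annotation release is not given in the sources used here. Per the series' text, the authors tested differential expression with edgeR. RPKM are not counts, so limma 3.58.1 in R 4.3.3 was used on log2(RPKM + 0.5), with eBayes trend and Benjamini-Hochberg adjustment over 14366 genes, with the authors' thresholds (fold above 1.5, adjusted p below 0.05). A list member rose or fell at an adjusted p under 0.05 whatever its fold. The fit was tested on simulated data with independent noise for each gene. The data have an axis of variation shared between genes, so false calls under such variation were not tested.

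Reads recovered from the RPKM steps were whole, within 0.01, for all 14366 genes (100% of values), in part with a length chosen to give whole reads (1181 genes). They served for depth and for limma voom, which called 36 genes at dawn in aged retinas. Symbols and lengths come from GENCODE M21 and 362 genes lack a symbol. Of the table's columns 1 had no matching label and stayed out.

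Named were up to 15 rises and 15 falls by size among called genes with a mean of at least 2 RPKM at either time and a symbol that is no clone name, list members with the smallest adjusted p, clock genes (6 singly, 18 by range) and the 10 smallest p for the difference between ages. Other members given as values were chosen after their values were seen. The genes, lists and tests were chosen with earlier results of these data known. Mice are separate animals, but litters and cages are unknown, and p-values cover the spread between these samples. Alternatives changed the pseudocount, filter, scaling, libraries in the fit, weights, moderation, replicate block and call rule, and left out each library.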

Additional observations from a re-analysis of the deposited data

Results flagged for a closer look

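Values of a single library stood far from the other 3 of its group in 13 of 212 groups screened, by Dixon's criterion for 4 samples, and chance flags about 1 in 20 groups. At ZT2, replicate 1 was low in Cry1 (16.7 RPKM, others 18.2 to 18.4) and high in Col8a2 (0.562 RPKM, others 0.389 to 0.418), Rpe65 (2.2 RPKM, others 0.569 to 0.665) and the sum of the 4 cold-inducible genes (214 RPKM, others 188 to 189). Replicate 2 was high in the glucocorticoid-responsive sum (208 RPKM, others 204 to 205), replicate 3 in the lens sum (2190 RPKM, others 65.6 to 238), and replicate 4 was low in the bipolar cell sum (138 RPKM, others 179 to 187).

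At ZT22, replicate 3 was low in Dync1li1 (33.7 RPKM, others 35.7 to 36.2), in the cholesterol synthesis sum (207 RPKM, others 257 to 267) and in the non-visual opsin sum (1.84 RPKM, others 3.60 to 3.80), and high in Hk2 (249 RPKM, others 214 to 218). Replicate 4 was high in the blood sum (831 RPKM, others 137 to 206), and replicate 2 in the cold-inducible sum (149 RPKM, others 128 to 131). The causes were not tested.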

How the results depend on the processing

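None of the 28 named genes that passed reversed in any setting. Medians of 20 of the 46 lists changed sign in at least 1 setting, such as ganglion cell markers (-0.06, and 0.57 without the 3 libraries that stand apart) and lens genes (-0.22, and 0.38 without ZT2 replicate 1), and 9 of 60 named genes, all clock genes that did not pass, took both signs. The 46 aged calls became 82 with no fold minimum, 15 with a minimum of 2, 20 with no filter on low values, 27 after median-ratio scaling, 26 without the eBayes trend, 111 with 12 group means when aged ZT6 replicate 3 and young ZT10 replicate 4 were left out, 9 without the 3 libraries that stand apart, 105 with the within-group axis as a covariate, and 3 to 38 leaving out single libraries. With the replicate number as a block they became 29. The correlations of same-numbered deviations were 0.28, 0.27, 0.47 and -0.03, and those of different numbers ran from -0.54 to 0.56. Whether the numbers mark a batch cannot be read from these values and was not tested.

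The 16 list members that passed became 5 with no filter, 5 after median-ratio scaling, 27 with 12 group means, 67 with 12 means without those 2 libraries, 6 without the trend, 1 without the 3 libraries apart, 56 with the axis and 2 to 15 leaving out single libraries. The 29 young calls became 59, 13, 7, 14 and 44 with no fold minimum, a minimum of 2, no filter, 12 means and 12 means without the 2 libraries, 0 with the replicate block and 14 to 30 leaving out single libraries. The difference between ages (0 genes) gave 1 with quantile normalization, with array weights and with 12 means without the 2 libraries, and 0 to 1 leaving out single libraries. The causes were not tested. Depth limits genes such as Serpine3, with as few as 4 reads in a library.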

Other observations

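Neighbouring genes could be read beside one another. Xbp1 and Ccdc117, adjacent on chromosome 11, fell together (-0.74 and -0.66), as Glmn and Rpap2 on chromosome 5 rose (0.86 and 0.59), and Gtf2h1 and Gm9392 on chromosome 7 differed by 0.39 and 0.50, all log2 differences in aged retinas. These are the 3 adjacent pairs of 13066 with both members past the adjusted p. On chromosome 7, Irf7 (-1.25) and Drd4 (-0.63), which passed, and Mir210, which entered the test only through ZT22 and is listed at 0 in every ZT2 library, lie within a run of 5 tested genes. Of the genes between them, Phrf1 was at -0.09 and Sct at -0.30, and neither passed, while Deaf1, beyond Drd4, was at 0.11. Gene order is from RefSeq, on an earlier build than the expression values. These genes were noticed after their values were seen, and nothing was tested about their position.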
